A study of Mus musculus with 6 samples.

Results

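The 10 genes described here encode the parts of the MHC class I presentation pathway: the heavy chains H2-K1, H2-D1, H2-Q7, H2-T23 and H2-M3, the shared light chain B2m, the peptide transporter Tap1 and Tap2, the loading factor Tapbp and the transactivator Nlrc5. They were taken by gene symbol from the deposited normalized matrix, where each of the 10 symbols was found among 13564 genes. RNA was sequenced from cultures of naive CD4 T cells (CD4N cells) sorted from lymph nodes of C57BL/6J mice, with 3 libraries from Foxo1TKO mice and 3 from Foxo1Ctrl mice. In Foxo1TKO mice (CD4-cre Foxo1 fl/fl) Cre is driven by the CD4 promoter, so that Foxo1 is deleted in all T cells and not in the CD4 lineage alone, whereas Foxo1Ctrl mice, littermates with Foxo1 fl/fl and no Cre, keep it, so that loss of Foxo1 and presence of Cre cannot be told apart. The methods list both genotypes on a Foxp3-GFP reporter background and give the age of the donors as young adult. The CD4N cells of both genotypes were stimulated for 4 days with 0.1 µg/ml of anti-CD3 antibody and 250000 splenocytes of C57BL/6 CD3eKO mice, which have no T cells and served as antigen-presenting cells. These splenocytes were not Foxo1TKO, and class I genes are active in almost every nucleated cell. Neither the labels nor the methods say whether they were removed before RNA extraction or whether each library came from its own mouse, so that p-values measure the spread between these libraries, which may be technical in part. In such bulk RNA, fewer cells of a type and less RNA per cell cannot be told apart.

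A class I molecule is a heavy chain bound to B2m and to a short peptide. Peptides cut by the proteasome are carried into the endoplasmic reticulum by the Tap1-Tap2 transporter, and Tapbp (tapasin) holds the empty heavy chain next to it until a peptide binds. In lymphocytes the transcription of heavy chains, B2m and Tap1 depends on Nlrc5, which has no DNA-binding domain of its own and is recruited to class I promoters by factors sitting on the X and Y boxes, and interferons raise the whole set through the Irf factors among others.

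Promoter sequences are shown because several members, though not all, carry this pair of boxes, which the choice of the genes did not use. RefSeq windows (GRCm38.p6, from 250 bases before to 50 after the start of a gene) were given for 8 of the 10 members, with none for Tap2 and Nlrc5. The motifs searched for on both strands were the X2 box core TGACG, the Y box core ATTGG (which read on the other strand is CCAAT), an interferon response element GAAANNGAA, a GAS element TTCNNNGAA and a Foxo site GTAAACA. In the lines that follow, capitals mark these motifs, bases run 5′ to 3′ on the strand of the gene, and bases that GENCODE M21 places inside the gene are left out. B2m and H2-K1 stand for the light chain and the classical heavy chains, H2-Q7 for the Qa-2 chains, and H2-Q2 is the heavy chain gene outside the members that rose in Foxo1TKO cultures.
B2m (chr2:122147437-122147685, plus strand): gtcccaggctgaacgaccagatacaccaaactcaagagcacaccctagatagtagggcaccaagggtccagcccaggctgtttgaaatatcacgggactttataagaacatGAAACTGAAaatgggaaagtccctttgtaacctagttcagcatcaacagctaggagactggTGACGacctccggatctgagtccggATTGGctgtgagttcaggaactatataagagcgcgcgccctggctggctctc
H2-K1 (chr17:34000348-34000597, minus strand): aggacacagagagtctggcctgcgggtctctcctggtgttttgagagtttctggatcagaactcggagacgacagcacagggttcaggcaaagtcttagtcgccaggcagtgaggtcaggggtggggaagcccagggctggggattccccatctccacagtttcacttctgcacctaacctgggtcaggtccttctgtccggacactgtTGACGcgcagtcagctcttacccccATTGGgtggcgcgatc
H2-Q7 (chr17:35438905-35439154, plus strand): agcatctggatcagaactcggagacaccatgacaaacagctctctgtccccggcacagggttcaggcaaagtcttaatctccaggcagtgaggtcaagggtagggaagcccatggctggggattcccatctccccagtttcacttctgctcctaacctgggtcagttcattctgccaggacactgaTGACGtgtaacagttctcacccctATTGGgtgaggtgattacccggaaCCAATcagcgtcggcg
H2-Q2 (chr17:35342057-35342241, plus strand): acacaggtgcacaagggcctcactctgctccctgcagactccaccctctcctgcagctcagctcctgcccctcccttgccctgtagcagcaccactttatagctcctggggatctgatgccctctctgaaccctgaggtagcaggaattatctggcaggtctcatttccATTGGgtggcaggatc

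Distances are from RefSeq starts. The X2 core began 78 bases before the start of B2m, 41 before the first listed start of H2-K1, 64 before that of H2-Q7, 46 before that of H2-M3 and 86 before that of Tap1. It was also found before the RefSeq start of H2-D1, in bases that GENCODE M21 places inside the gene. In 5 of the 8 members with a window (B2m, H2-K1, H2-D1, H2-Q7 and H2-M3) a Y core on the same strand began 24 or 25 bases after the X2 core. This spacing, looked for after the single motifs had been seen, was present in 43 of 32851 mouse windows (0.131%), whereas TGACG alone was in 20.8% and ATTGG alone in 37.4%. The 43 include the windows of these 5 members, whose own matches set the spacing, so the share is not an independent background. H2-T23, Tap1, Tapbp and H2-Q2 lacked the pair, and H2-Q2 had the Y core without TGACG. The string GAAANNGAA was found 139 bases before B2m and 123 before H2-T23 (8.56% of all windows), the GAS string 209 bases before H2-M3 (8.30%), and the Foxo string in no member window (3.65% of all windows). GENCODE M21 places the match of H2-T23 inside the gene. A match describes letters in these windows and not the binding of a factor. Only these exact strings were searched for, and other forms of the same elements were not. A window without a match, such as that of H2-K1 or H2-Q7 for GAAANNGAA, is therefore not shown to lack an interferon response element.

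The libraries held between 14783853 and 19675407 rounded counts. Foxo1, the targeted gene, was at 0.73, 0.36 and 0.83 TPM (abundance per transcript length, scaled to the same total in each library) in Foxo1TKO libraries and at 12.3, 15.2 and 12.8 in Foxo1Ctrl libraries. The 8 T cell markers checked summed to between 8714 and 9557 TPM in all libraries, and the 10 B cell markers to 7.46 to 10.8 TPM in Foxo1TKO and 24.6 to 31.9 in Foxo1Ctrl. The T cell sum does not describe single markers. In the test given below 1 of the 8 was lower and 0 higher, beside 12.4% and 11.8% of all genes tested. This was Cd28, at 106 to 116 TPM in Foxo1TKO and 267 to 300 in Foxo1Ctrl libraries. Cd4 ranged from 64.9 to 225 TPM over the 6 libraries. The libraries also differed within each genotype. The slope of a library's log2 deviations from its genotype mean on the GC content of transcripts was fitted without the members. It was positive in Foxo1TKO replicate 1 and Foxo1Ctrl replicates 1 and 3 (0.27, 0.18 and 0.14 per 10 percentage points of GC). It was negative in Foxo1TKO replicates 2 and 3 and Foxo1Ctrl replicate 2 (−0.10, −0.17 and −0.32). Since deviations were taken from the genotype mean, each genotype had to hold slopes of both signs. A GC difference between the genotypes would not show in these slopes.

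All members were expressed, and all passed the filter on low counts. Of the 10, Nlrc5 fell in Foxo1TKO cultures and no other member passed the test, in a comparison in which 12.4% of the 13691 genes tested were lower and 11.8% higher (edgeR's quasi-likelihood test, Benjamini-Hochberg adjusted p under 0.05). The fold changes of all 10 members lay below 0, from −0.02 to −0.69 on the log2 scale with a median of −0.35, against a median of 0.01 and quartiles of −0.46 and 0.45 over all genes tested. The libraries of the genotypes did not overlap for 4 members, Nlrc5, B2m, H2-T23 and H2-M3, each lower in Foxo1TKO, beside 42.7% of all genes tested. At an unadjusted p under 0.05, 2 members were lower and 0 higher. The share of all genes tested at this unadjusted threshold was not counted, here or for the lists below, so these counts have no background. Per-library values are given from here on as normalized read counts, that is counts scaled by TMM factors, for replicates 1, 2 and 3 in this order, and mean ± SD have n = 3.

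**Figure D1:**
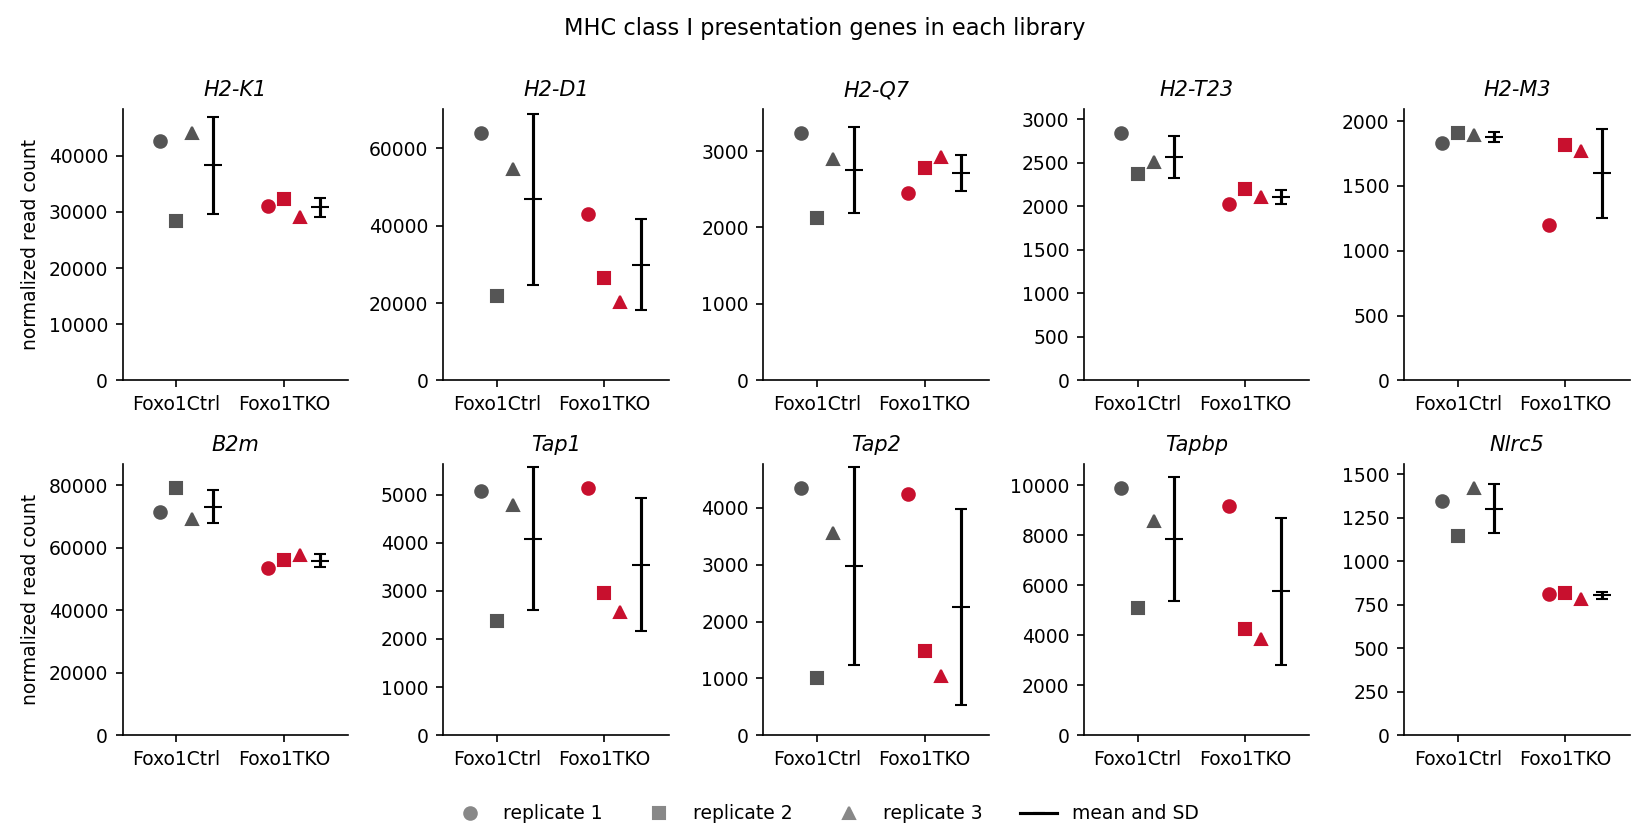
Normalized read counts of the 10 members (vertical axes, linear from 0) in Foxo1Ctrl (grey) and Foxo1TKO (red) libraries, with replicates 1, 2 and 3 as circle, square and triangle and the mean with SD (n = 3) as a black bar. Nlrc5, B2m, H2-T23 and H2-M3 do not overlap between the genotypes, while H2-D1, Tap1, Tap2 and Tapbp are low in replicate 2 of Foxo1Ctrl and high in replicate 1 of Foxo1TKO.

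Nlrc5 (ENSMUSG00000074151, GRCm38 chromosome 8, 94434356 to 94527272), the transactivator of the class I genes, had 814, 819 and 781 normalized read counts in Foxo1TKO libraries and 1345, 1145 and 1418 in Foxo1Ctrl libraries. All Foxo1TKO libraries lay close together and below the lowest Foxo1Ctrl library. The means were 805 ± 20.3 and 1303 ± 142, a log2 fold change of −0.69 (standard error 0.15, edgeR adjusted p = 0.0129). Leaving out single libraries gave fold changes between −0.77 and −0.64. The call was lost without Foxo1TKO replicate 2 (edgeR adjusted p = 0.0698), Foxo1TKO replicate 3 (0.0539) or Foxo1Ctrl replicate 3 (0.0521). Nlrc5 shares no run of 50 bases with another gene, but the lincRNA 9330175E14Rik overlaps its exons on the opposite strand, and the sources do not give the strand setting of the counting.

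B2m (ENSMUSG00000060802, chromosome 2, 122147686 to 122153083), the light chain of every class I molecule and the most abundant member, had 53697, 56229 and 57785 normalized read counts in Foxo1TKO libraries and 71527, 79068 and 69189 in Foxo1Ctrl libraries. Each Foxo1TKO library lay below each Foxo1Ctrl library, and the coefficient of variation within a genotype was 3.69% and 7.05%. The medians over all genes tested were 19.5% and 22.3%. These medians include genes with far fewer counts, so they do not show that B2m was unusually steady for its level. The means were 55904 ± 2063 and 73261 ± 5163, a log2 fold change of −0.39 (standard error 0.15) that did not pass edgeR's threshold (adjusted p = 0.0901). It passed with DESeq2 (−0.39, adjusted p = 0.0406), and in edgeR with the sign of the library's GC slope as a further term, which was added after the data were seen (−0.43, adjusted p = 0.00341). With a correction for GC content the difference was −0.25 (edgeR adjusted p = 0.233). No run of 50 bases of B2m is shared with another gene.

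The B cell marker sums given above moved with genotype in the same direction as Nlrc5 and B2m. Of the 8 B cell markers tested, 7 had a fold change below 0 and 3 fell, Cd79a and Ms4a1 among them, beside 12.4% lower among all genes tested. None of the 10 listed was at 0 in all libraries. Ms4a1, which encodes CD20, was at 0.41 to 0.71 TPM in Foxo1TKO and 2.36 to 2.65 TPM in Foxo1Ctrl libraries. The 12 markers of macrophages and dendritic cells summed to 10.07 to 11.02 TPM in Foxo1TKO and 2.05 to 4.21 in Foxo1Ctrl libraries, with 1 gene at 0 throughout. This gap was that of Itgax alone (6.59 to 7.68 and 0 to 0.43 TPM), the 1 of 3 tested that passed. Without it, a choice made after its values were seen, the sums were 2.97 to 3.98 and 2.05 to 4.19 TPM and overlapped. The part of RNA from these cells in the class I values was not tested.

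The classical heavy chains present peptides to CD8 T cells, and H2-K1 and H2-D1 together made up 80.1% of all class I heavy chain counts. H2-K1 (ENSMUSG00000061232, chromosome 17, 33996017 to 34000347) had 30970.1, 32346 and 29077 normalized read counts in Foxo1TKO libraries and 42548, 28309 and 43959 in Foxo1Ctrl libraries. Replicate 2 of Foxo1Ctrl lay below all Foxo1TKO libraries and the other two Foxo1Ctrl libraries above them. The log2 fold change was −0.31 (standard error 0.20, edgeR adjusted p = 0.294), and without Foxo1Ctrl replicate 2 it was −0.48 and passed the threshold (edgeR adjusted p = 0.0236).

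H2-D1 (ENSMUSG00000073411, chromosome 17, 35262730 to 35267499) had 43011, 26381 and 20275 normalized read counts in Foxo1TKO libraries and 63829, 21910 and 54738 in Foxo1Ctrl libraries. Its values ranged 3.15-fold over the 6 libraries, and the means were 29889 ± 11767 and 46826 ± 22052 (log2 fold change −0.65, standard error 0.42, edgeR adjusted p = 0.308). Without Foxo1TKO replicate 1 the log2 fold change was −1.0 and without Foxo1Ctrl replicate 1 it was −0.38, and leaving out any one library did not make it pass the threshold. The median log2 fold change of all genes tested moved by less than 0.1 under each alternative scaling.

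H2-Q7 (ENSMUSG00000060550, chromosome 17, 35439155 to 35443773), which encodes a chain of the Qa-2 antigen, had 2457, 2781 and 2916 normalized read counts in Foxo1TKO libraries and 3230, 2126 and 2899 in Foxo1Ctrl libraries. The means differed least among the members, with 2718 ± 236 and 2752 ± 567 (log2 fold change −0.02, standard error 0.18, edgeR adjusted p = 0.956), and the sign turned under several alternatives. H2-T23 (ENSMUSG00000067212, chromosome 17, 36029773 to 36032855) encodes Qa-1, the ligand of CD94-NKG2 receptors, and had 2030.1, 2193 and 2107 counts in Foxo1TKO and 2837, 2367 and 2504 in Foxo1Ctrl libraries. Its genotypes did not overlap, and its log2 fold change of −0.28 (standard error 0.14) did not pass the threshold (edgeR adjusted p = 0.179). H2-M3 (ENSMUSG00000016206, chromosome 17, 37270220 to 37274484), which presents formylated peptides of bacteria and mitochondria, had 1202, 1817 and 1772 counts in Foxo1TKO and 1829, 1904 and 1894 in Foxo1Ctrl libraries. Foxo1TKO replicate 1 was by far the lowest, and without it the log2 fold change went from −0.23 (standard error 0.18, edgeR adjusted p = 0.410) to −0.07.

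Reads are hard to divide among heavy chains, since their sequences are alike. Of the 50-base windows of a gene's transcripts, 26.4% were shared with another gene for H2-Q7, 13.6% for H2-T23, 12.8% for H2-D1, 9.63% for H2-K1 and 0.576% for H2-M3. Summed over 30 heavy chain genes, of which 20 had counts, the total was 76776 ± 10515 normalized read counts in Foxo1TKO and 105489 ± 31797 in Foxo1Ctrl cultures. This sum, which does not depend on how reads were divided among the summed genes but still on those shared with other genes such as H2-T-ps and H2-Q5, had a log2 fold change of −0.46 (standard error 0.25, edgeR adjusted p = 0.231). Without Foxo1Ctrl replicate 2 it was −0.68 (edgeR adjusted p = 0.0200).

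**Figure D2:**
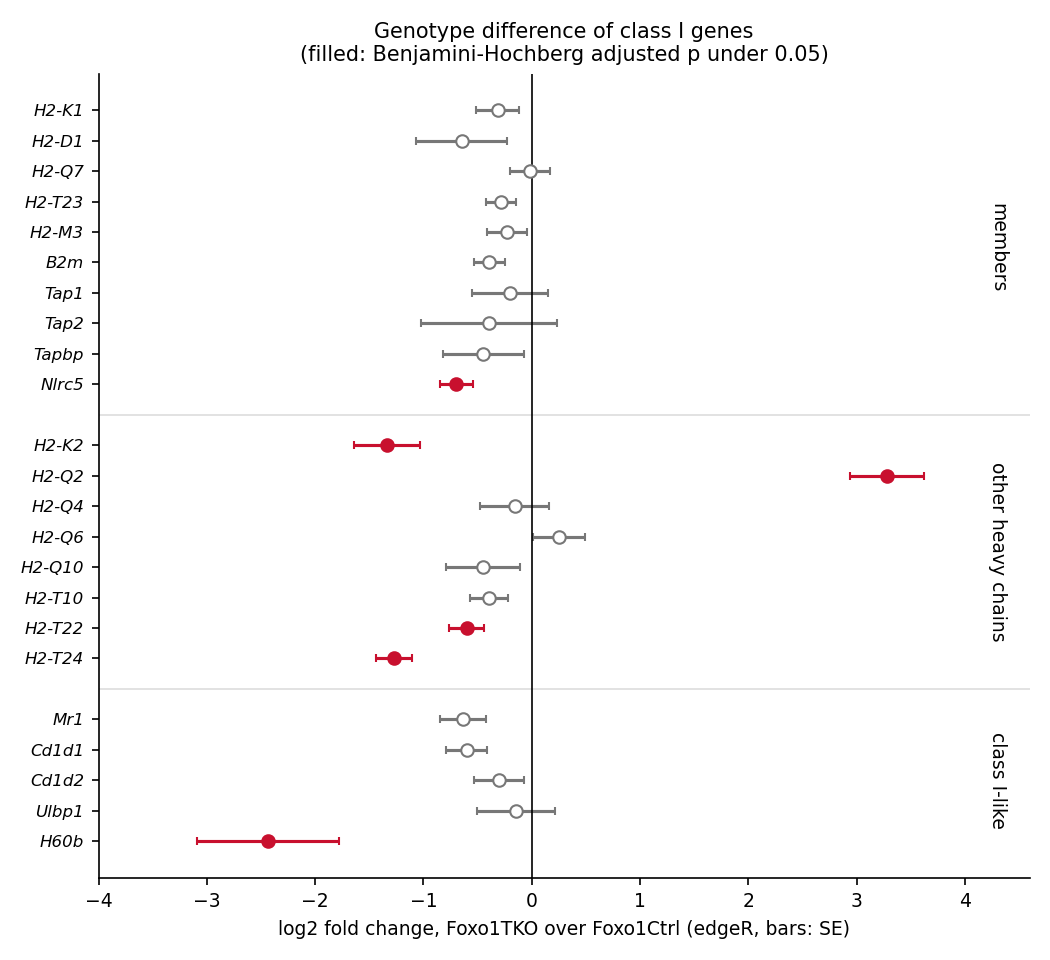
Log2 fold change of Foxo1TKO over Foxo1Ctrl (horizontal axis, points) with its standard error (bars) from edgeR for the members, the 8 other heavy chain genes tested and 5 class I-like genes (Fcgrt, with a bound only, is left out). Filled red points passed an adjusted p of 0.05: Nlrc5 at −0.69 among the members, and H2-Q2 at 3.28 as the single point far to the right.

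The genes of peptide transport and loading varied more between libraries of one genotype than between genotypes. Tap1 (ENSMUSG00000037321, chromosome 17, 34187553 to 34197225) had 5128, 2955 and 2549.9 normalized read counts in Foxo1TKO and 5074, 2374 and 4790.3 in Foxo1Ctrl libraries (log2 fold change −0.20, standard error 0.35, edgeR adjusted p = 0.720). Tap2 (ENSMUSG00000024339, chromosome 17, 34203527 to 34216321) had 4238, 1487 and 1042 counts in Foxo1TKO and 4342, 1009.8 and 3559.8 in Foxo1Ctrl libraries (log2 fold change −0.40, standard error 0.63, edgeR adjusted p = 0.694). Tapbp (ENSMUSG00000024308, chromosome 17, 33915899 to 33929292) had 9162, 4261 and 3855 counts in Foxo1TKO and 9884, 5087 and 8560.3 in Foxo1Ctrl libraries (log2 fold change −0.45, standard error 0.37, edgeR adjusted p = 0.436). In all of them replicate 1 of Foxo1TKO stood with replicates 1 and 3 of Foxo1Ctrl, and replicates 2 and 3 of Foxo1TKO with replicate 2 of Foxo1Ctrl. Without Foxo1TKO replicate 1 the log2 fold change was −0.56 for Tap1, −1.22 for Tap2 and −0.95 for Tapbp (edgeR adjusted p = 0.257, 0.162 and 0.0556). Other genes overlap the exons of each on the opposite strand: Psmb9 for Tap1, Gm15821 and Gm20496 for Tap2, and Gm19412 for Tapbp, which Zbtb22 overlaps on its own strand.

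These are the libraries that the sign of the GC slope separates. For Tap1, Tap2, Tapbp and H2-D1 every library with a positive slope lay above every library with a negative one, by 1.90-fold, 3.43-fold, 2.09-fold and 2.36-fold between the means of the 3 libraries each, whereas the other 6 members overlapped. The share of all genes tested that separate in this way was not counted, so this count of members has no background. Outside the members, Psmb9 separated in the same direction (1.06-fold) and Psmb8 in the opposite one (0.86-fold). Tapbp and Tap2 were the members richest in GC, with 58.4% and 57.9% of transcript bases, above 94.1% and 92.5% of the genes tested. B2m, with 41.2%, was the poorest and above 8.79%, and the median gene had 49.1%. The order by GC did not sort the other members: Tap1 had 55.8% and H2-D1 53.9%. H2-K1 (55.3%), H2-T23 (55.3%) and H2-Q7 (54.9%), which overlapped, were richer than H2-D1, and Nlrc5 (52.4%) and H2-M3 (51.0%) poorer. The part of GC content, or of anything else in which these libraries differ, was not tested.

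**Figure D3:**
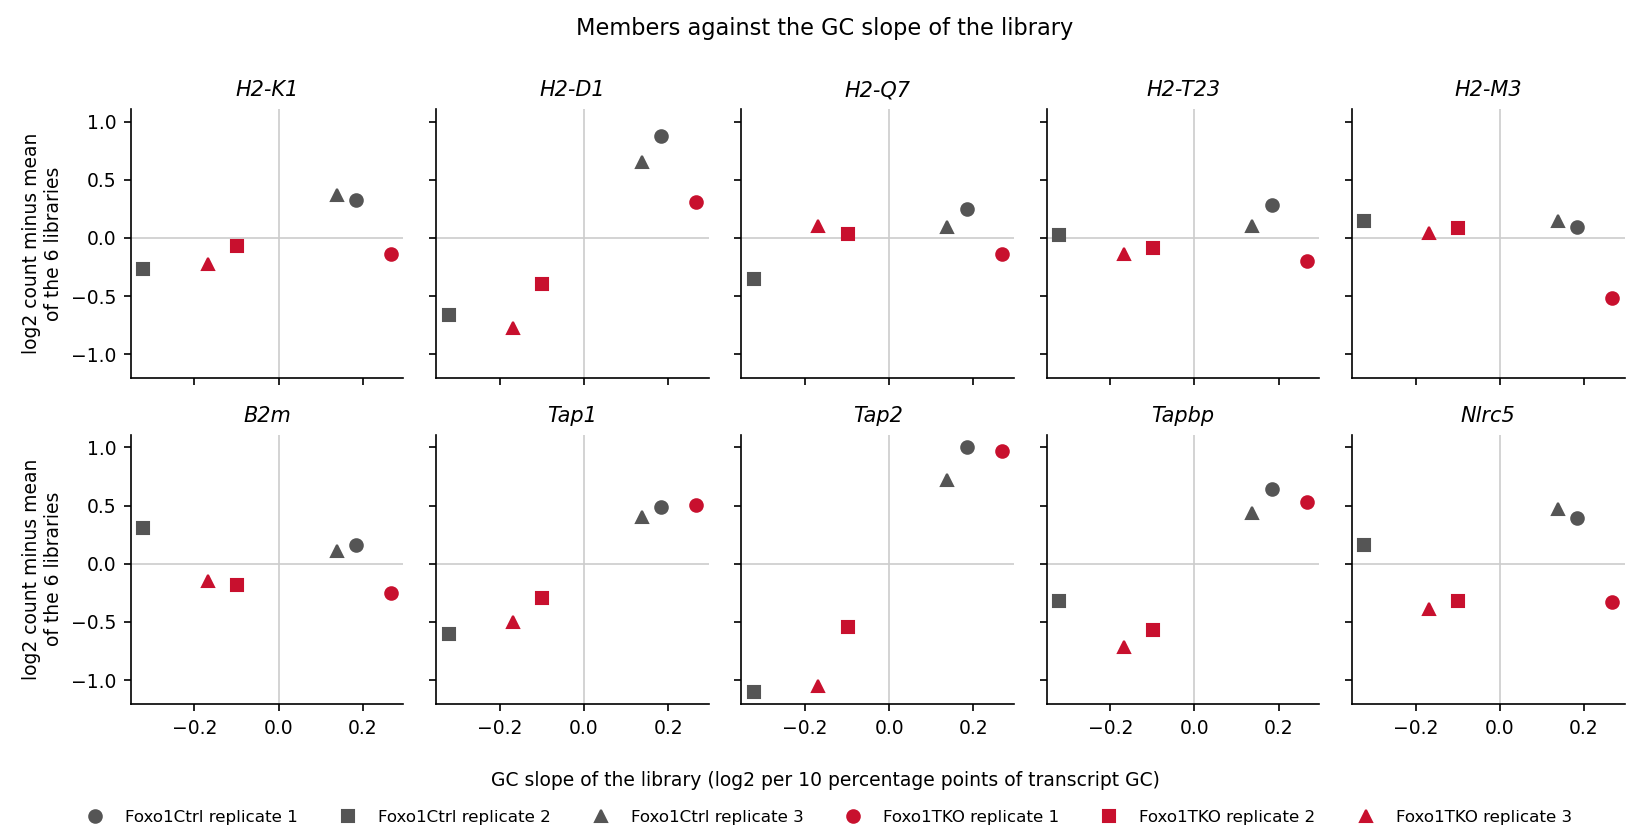
Log2 normalized count of each member minus its mean over the 6 libraries (vertical axes) against the GC slope of the library (horizontal axes, log2 per 10 percentage points of transcript GC), with Foxo1Ctrl in grey, Foxo1TKO in red and replicates 1, 2 and 3 as circle, square and triangle. Tap1, Tap2, Tapbp and H2-D1 separate by the sign of the slope (share over all genes tested not counted), and B2m, Nlrc5, H2-T23 and H2-M3 by genotype (42.7% of all genes tested).

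Within the libraries of one sign the genotypes can be set side by side, without a test, as 1 Foxo1TKO against 2 Foxo1Ctrl libraries (positive) and 2 against 1 (negative). The sign is relative to the mean of the library's own genotype. Nlrc5 had a log2 ratio of Foxo1TKO to Foxo1Ctrl of −0.76 among positive and −0.52 among negative libraries, and B2m of −0.39 and −0.47. For Tap2 these ratios were 0.10 and 0.32, for Tap1 0.06 and 0.21, for Tapbp −0.01 and −0.33, for H2-K1 −0.48 and 0.12, and for H2-D1 −0.46 and 0.09. With the sign of the slope as a term in edgeR, added after the data were seen, Nlrc5 had a log2 fold change of −0.64 (adjusted p = 0.00273), and the fold changes of Tap1 and Tap2 turned to 0.13 and 0.21 without passing the threshold (edgeR adjusted p = 0.342 and 0.319). Of all 13691 genes, 2727 were lower and 2950 higher with this term, against 1695 and 1613 without it.

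Per transcript length, in TPM, the order of the members was the same in both genotypes. B2m came first with 5356 ± 256 TPM in Foxo1TKO and 6743 ± 303 in Foxo1Ctrl, then H2-K1 (2045 ± 141 and 2467 ± 652) and H2-D1 (1132 ± 535 and 1726 ± 916), which overlapped each other in Foxo1Ctrl. Tapbp (167 ± 100.2 and 216 ± 86.8), H2-Q7 (131 ± 4.82 and 132 ± 35.3), H2-T23 (103 ± 7.53 and 121 ± 20.8), Tap1 (96.7 ± 43.2 and 112 ± 47.4), H2-M3 (82.8 ± 12.6 and 94.7 ± 8.92) and Tap2 (62.5 ± 52.8 and 78.8 ± 49.3) followed. Among these the libraries of neighbours overlapped within each genotype, except H2-Q7 and H2-T23 in Foxo1TKO. Nlrc5 was last, with 29.5 ± 1.71 and 44.9 ± 6.48 TPM, and overlapped Tap2 in both genotypes. The 10 members together made 10381, 8980 and 8254 TPM in Foxo1TKO and 13195, 9332 and 12677 in Foxo1Ctrl libraries, a log2 ratio of −0.34 (exact two-sided permutation p = 0.2, where 3 libraries against 3 cannot give less than 0.1).

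There were 1.24, 1.39 and 1.55 B2m transcripts per heavy chain transcript in Foxo1TKO libraries and 1.14, 2.06 and 1.16 in Foxo1Ctrl libraries, by TPM. The genotypes overlapped (log2 ratio −0.01, exact two-sided permutation p = 1), and Foxo1Ctrl replicate 2, where H2-K1 and H2-D1 were low, held the highest ratio. H2-D1 gave 21.3% to 39.3% of heavy chain TPM and H2-K1 45.0% to 56.9%, and both the lowest share of H2-D1 and the highest of H2-K1 were in Foxo1TKO replicate 3.

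Of the 25 other class I heavy chain genes listed, 8 could be tested, 3 fell and 1 rose, with a median log2 fold change of −0.42. Among all genes tested, 12.4% fell and 11.8% rose. H2-Q2 (ENSMUSG00000091705, chromosome 17, 35342242 to 35346762), a Qa region gene, had 514, 519 and 613 normalized read counts in Foxo1TKO and 51.3, 32.0 and 82.4 in Foxo1Ctrl libraries. All Foxo1TKO libraries were far above the highest Foxo1Ctrl library, and H2-Q2 rose with a log2 fold change of 3.28 (standard error 0.34, edgeR adjusted p = 0.000562). Its fold change lay between 3.01 and 3.68 without single libraries. Its share of heavy chain TPM was at most 1.12% in any library, and 16.1% of its 50-base windows are shared with other genes, first of all H2-Q1, which held at most 0.00257% of heavy chain TPM.

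H2-T24 (chromosome 17, 36005695 to 36020560), a gene of the T region, had 379, 447 and 476 normalized read counts in Foxo1TKO and 1075, 1094 and 973 in Foxo1Ctrl libraries, and fell (log2 fold change −1.27, standard error 0.16, edgeR adjusted p = 0.00144). H2-T22 (chromosome 17, 36037128 to 36042747), whose product is a ligand of some γδ T cells, had 4479, 5687 and 6121 counts in Foxo1TKO and 8200, 8665 and 7840.4 in Foxo1Ctrl libraries, and fell too (−0.60, standard error 0.16, edgeR adjusted p = 0.0298). The transcribed pseudogene H2-K2 had 495, 431 and 379 counts in Foxo1TKO and 1426, 624 and 1245 in Foxo1Ctrl libraries (−1.33, standard error 0.30, edgeR adjusted p = 0.0159). In these genes and H2-Q2 no library of one genotype overlapped the other. H2-T22 shares 34.5% of its windows, most of them with H2-T10, and its call was lost without any of 5 libraries, all but Foxo1Ctrl replicate 2 (edgeR adjusted p up to 0.106), as was that of H2-K2 without Foxo1TKO replicate 2 or 3 or Foxo1Ctrl replicate 1 or 3 (up to 0.0720). H2-Q6 (log2 fold change 0.26) and H2-Q4 (−0.15) were among the 4 that did not pass the threshold.

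**Figure D4:**
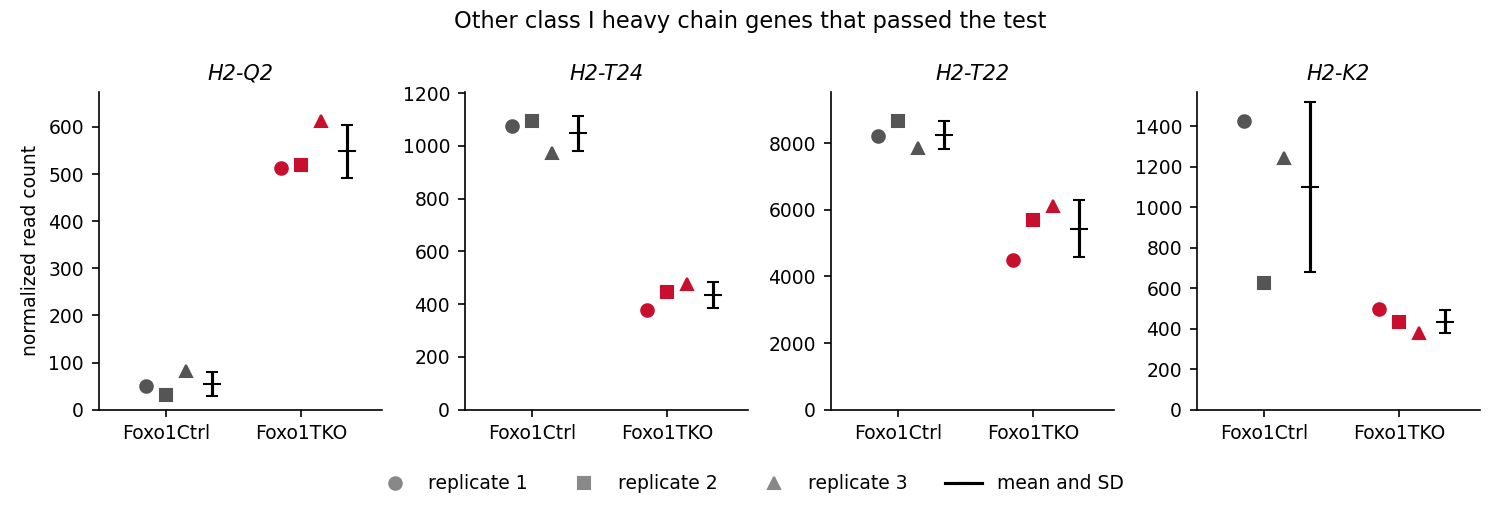
Normalized read counts (vertical axes, linear from 0) of the 4 other heavy chain genes that passed the test, in Foxo1Ctrl (grey) and Foxo1TKO (red) libraries, with replicates 1, 2 and 3 as circle, square and triangle and the mean with SD (n = 3) in black. H2-Q2 is the one that rose, from 55.2 to 548 counts, and H2-T24, H2-T22 and H2-K2 fell.

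Class I-like genes, which share the fold but mostly do not present peptides, numbered 12 in the list used. Of these 6 could be tested, all 6 had a fold change below 0, and 2 fell, beside 12.4% of all genes tested. Fcgrt, the neonatal Fc receptor that also pairs with B2m, had 2.54, 0 and 0 normalized read counts in Foxo1TKO and 123, 43.5 and 75.6 in Foxo1Ctrl libraries, at least 25.04-fold lower against a floor of 3 counts per library. H60b, a ligand of NKG2D, had 33.4 ± 12.4 counts in Foxo1Ctrl and 5.20 ± 4.59 in Foxo1TKO cultures and fell (−2.43 on the log2 scale, standard error 0.66, edgeR adjusted p = 0.0231), a call lost without Foxo1TKO replicate 2 (0.0937) or Foxo1Ctrl replicate 1 (0.0774).

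In the 8 lists of the surrounding pathway, heavy chains and class I-like genes included, 64 genes were tested, 11 fell and 7 rose, with a median log2 fold change of −0.09. These counts, and those of the single lists, stand beside 12.4% lower and 11.8% higher among all genes tested. Of the 7 genes of peptide loading and trimming, 0 passed the test in edgeR, 1 was lower at an unadjusted p under 0.05, and 1 was lower by DESeq2 and by limma-voom, with 0 higher in each. Over all 13691 genes tested, 2028 were lower with DESeq2 and 1731 with limma-voom. Calr, the chaperone calreticulin (log2 fold change 0.24), the tapasin homologue Tapbpl (−0.13) and the trimming peptidase Erap1 (−0.05) all had an edgeR adjusted p above 0.5. The immunoproteasome subunits that cut class I peptides did not pass the test, with 28006 ± 3095 and 28046 ± 2564 normalized read counts for Psmb8, 4165 ± 147 and 4318 ± 169 for Psmb9 and 4066 ± 135 and 4021 ± 338 for Psmb10 (log2 fold changes −0.00, −0.05 and 0.02, standard errors 0.16, 0.13 and 0.13).

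The proteasome activator genes Psme1 and Psme3 rose (log2 fold changes 0.45 and 1.45, edgeR adjusted p = 0.0356 and 0.0377). Psme1 had 6679, 6237 and 6428 normalized read counts in Foxo1TKO and 4711, 4746 and 4714 in Foxo1Ctrl libraries. Both calls were lost without each library but Foxo1Ctrl replicate 2 for Psme1 (edgeR adjusted p up to 0.145) and each but Foxo1Ctrl replicate 3 for Psme3 (up to 0.111). The fold changes then lay between 0.42 and 0.48 for Psme1 and between 1.18 and 2.17 for Psme3. Of 5 cytosolic peptidases tested, Lap3, a leucine aminopeptidase, rose from 198 ± 40.0 to 445 ± 40.2 counts (1.16 on the log2 scale, standard error 0.21, edgeR adjusted p = 0.00606), and Tpp2, which trims long peptides, fell from 2909.7 ± 239.5 to 1711 ± 229.5 (−0.77, standard error 0.16, edgeR adjusted p = 0.0106).

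Of 13 transcription factor genes of class I promoters, Irf2 fell (log2 fold change −0.48, edgeR adjusted p = 0.0364) and Rfx5, a subunit of the complex on the X box, rose (0.95, edgeR adjusted p = 0.0490). Each call was lost without any library but Foxo1Ctrl replicate 2 (edgeR adjusted p up to 0.184 for Irf2 and 0.154 for Rfx5). Irf1, the interferon-induced activator of these promoters, had 2389, 2229 and 2179.6 normalized read counts in Foxo1TKO and 3021, 2486 and 3074 in Foxo1Ctrl libraries, without overlap and without passing the threshold (−0.34, standard error 0.14, edgeR adjusted p = 0.135).

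Among 12 genes of interferon signalling, 3 fell and 0 rose in edgeR. With DESeq2 5 were lower and 0 higher, with limma-voom 3 and 0, and at an unadjusted p under 0.05 in edgeR 5 and 1. Over all 13691 genes tested, the shares in edgeR were 12.4% lower and 11.8% higher. DESeq2 called 2028 of them lower and 2017 higher, and limma-voom 1731 and 1666. Ifngr1, the ligand-binding chain of the interferon-γ receptor, had 4590.1, 4477 and 3865 normalized read counts in Foxo1TKO and 53593, 43490.1 and 47987 in Foxo1Ctrl libraries, the largest difference of the list (log2 fold change −3.49, standard error 0.17, edgeR adjusted p = 3.42e-05). Irf9, the DNA-binding subunit of the type I interferon factor, fell from 4892 ± 299 to 2423 ± 280.1 counts (−1.01, standard error 0.15, edgeR adjusted p = 0.00241). Ifng itself was low, with 160, 73.7 and 66.5 counts in Foxo1TKO and 39.3, 59.5 and 55.2 in Foxo1Ctrl libraries (0.95, standard error 0.40, edgeR adjusted p = 0.126).

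Of 7 receptors of class I molecules tested, 2 rose, 1 fell and 4 did not pass the test, with a median log2 fold change of −0.11. The shares over all genes tested were 11.8% higher and 12.4% lower. Cd160 rose from 460 ± 130 to 5998 ± 1196 normalized read counts (log2 fold change 3.70, standard error 0.27, edgeR adjusted p = 0.00013). Klrd1, which encodes CD94, the partner of NKG2 chains in binding Qa-1, fell from 4153 ± 702 to 805 ± 189 (−2.37, standard error 0.23, edgeR adjusted p = 0.000399). Klra3, a Ly49 receptor, rose from 21.5 ± 6.53 to 86.3 ± 14.96 (1.96, standard error 0.35, edgeR adjusted p = 0.00513). In these receptors no library of one genotype overlapped the other.

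**Figure D5:**
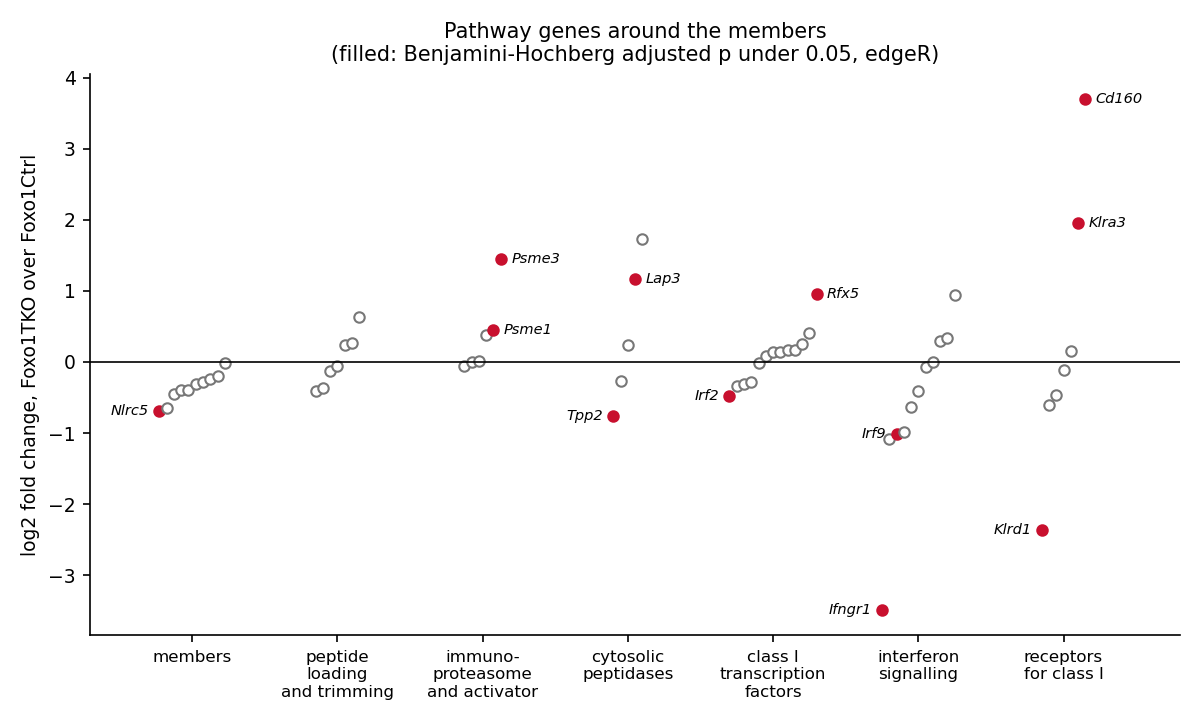
Log2 fold change of Foxo1TKO over Foxo1Ctrl (vertical axis) of the tested genes of the members and of 6 pathway lists (horizontal axis), one point a gene, with 1 interferon signalling gene not shown, filled red and named where the edgeR adjusted p was under 0.05. The members lie between −0.69 and −0.02, while Ifngr1 at −3.49 and Cd160 at 3.70 mark the ends of the surrounding lists.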

How the data were processed

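For each library the authors deposited expected counts of the genes as estimated by RSEM, their TPM and their effective length (in bases). They aligned reads with STAR 2.7.6a to GRCm38 (Ensembl annotation) and counted with RSEM 1.3.1, keeping reads that mapped to up to 10 loci. They also deposited a matrix of normalized signal, that is counts divided by a size factor and by relative effective length. Strandedness is not given in the sources used here.

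Expected counts were used as the nearest whole number. The 13691 genes that reached 10 counts in 3 or more libraries were tested, and genotypes were compared with edgeR 4.0.16 in R 4.3.3 (TMM, quasi-likelihood test, prior count 1, genotype as sole term, p-values adjusted by Benjamini-Hochberg across the tested genes, threshold 0.05). Counts are given on the scale of the mean effective library size. A gene with one genotype at or under 3 counts in all libraries is given a bound, which covers counting error only. The authors' test, DESeq2, was an alternative (1.42.0), as were limma-voom (3.58.1), other scalings and filters, the deposited matrix or TPM on log2(value + 1), a replicate block and each library left out. A GC correction and the sign of the GC slope as a term were added after the data were seen. Scripts were tested on simulated data. Gene positions, overlaps, transcript GC and shared 50-base windows came from GENCODE M21 (GRCm38), and promoters from RefSeq. Named were all members and, by a fixed rule, up to 6 passing genes per list and 13 further genes, of which 1 is not reported here. The members and lists were chosen with earlier results of these data known.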

Additional observations from a re-analysis of the deposited data

How the results depend on the processing

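Of 190 values of members under alternatives, 176 kept their direction and side of the threshold. Nlrc5 passed under all alternatives run on all 6 libraries, with a log2 fold change of −0.69 (edgeR adjusted p = 0.0231) under the replicate block, and ranged from −0.77 to −0.64 with each library left out. B2m passed with DESeq2 (−0.39) and with the sign of the GC slope as a term (−0.43). With each library left out Tap2 ranged from −1.22 to −0.0365, Tapbp from −0.95 to −0.22, H2-D1 from −1.0 to −0.38, Tap1 from −0.56 to −0.00381, H2-K1 from −0.48 to −0.21 and the heavy chain sum from −0.68 to −0.32. H2-Q7 changed sign with TPM (0.0302), the replicate block (0.000222), the slope term (0.0502) and single libraries left out (−0.17 to 0.0887), and Tap1 and Tap2 with the slope term (0.13 and 0.21). The number of members lower was 2 with DESeq2 and with the slope term, and 0 to 2 with each library left out. In the 8 pathway lists, 17 genes were lower with DESeq2, 19 with the slope term and 5 to 16 with each library left out, and 15 were higher with the slope term and 4 to 9 with each library left out. Over all genes tested, 2028 were lower with DESeq2, 2727 with the slope term and 933 to 1599 with each library left out, against 1695 in the main fit. Those higher numbered 2950 with the slope term and 657 to 1832 with each library left out, against 1613.

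Of the other named genes, signs near 0 turned for Psmb8 (effective length offset 0.00360, filterByExpr 0.000772, no filter 0.00443, deposited matrix 0.00863 with either pseudocount, TPM 0.0558, libraries left out −0.0683 to 0.0803), Psmb9 (TPM 0.0142), Psmb10 (GC correction −0.0949, libraries left out −0.0445 to 0.0565), Erap1 (GC correction 0.0740, libraries left out −0.10 to 0.0222), Tapbpl (slope term 0.11, libraries left out −0.35 to 0.0295) and Calr (libraries left out −0.00739 to 0.44). The cause of these changes was not tested. Of 529 values of the 28 other named genes, 458 kept direction and call, 49 lost the call and 4 gained it. Whether the replicate numbers pair the libraries is not known, and the paper compared protein levels in such cultures as pairs by experiment. Deviations of same-numbered libraries correlated at 0.43, 0.20 and −0.11 across genes, and those of differently numbered libraries at −0.45 to 0.30. These correlations do not settle the pairing. The replicate block ended the calls of Psme1 (0.45, edgeR adjusted p = 0.0623) and Rfx5 (0.98, edgeR adjusted p = 0.0688) and no other among the named genes. With 3 libraries a genotype, the log2 fold changes of Tap1, Tap2, Tapbp and H2-D1 had standard errors of 0.35, 0.63, 0.37 and 0.42. These are the members that separate by the sign of the GC slope. The smallest difference that could have been detected was not worked out.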
